A study of Mus musculus with 10 samples.

Results

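The genes described here are 40 members of the neuronal microtubule system, taken by gene name from a table of 53801 mouse genes: 5 alpha tubulins, 7 beta tubulins, 1 gamma tubulin, 10 microtubule-associated proteins, 3 doublecortins, 4 stathmins, 5 collapsin response mediator proteins (CRMPs), 4 factors of tubulin folding and tyrosination, and Gap43. All 40 names were found in the table, each in 1 row. The study sorted cells of the mouse dorsal brain into an NG2+ and a GFAP+ population by flow cytometry at embryonic day 14, after in utero electroporation with StarTrack reporter plasmids at embryonic day 12. Both groups were wild type (WT) and labelled as neural stem cells of batch 1, and each held 5 libraries made from SMARTer-amplified, poly(A)-enriched RNA. The labels name neither the promoters of the reporters nor the animals behind each library, so p-values measure only the spread between these libraries, which may be technical. The comparison asks how the NG2+ and the GFAP+ cells differed in RNA.

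Microtubules are polymers of alpha and beta tubulin dimers. Newborn neurons build them into a leading process and an axon, and use a tubulin repertoire, associated proteins and growth-cone regulators that dividing progenitors use less. Stathmins bind tubulin dimers and promote disassembly, microtubule-associated proteins and doublecortins bind along the polymer, and CRMPs carry tubulin and relay guidance signals in the growth cone. Several of these genes (Tubb3, Dcx, Map2, Stmn2) are therefore in wide use as markers of young neurons.

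No member passed the test over all genes (edgeR's quasi-likelihood test, Benjamini-Hochberg adjusted p under 0.05), which called 12 of 16187 tested genes higher in NG2+ cells (0.0741%) and 12 lower (0.0741%), or 0.148% in either direction. Of the 40 members, 39 passed the filter on low counts, 29 had a positive log2 fold change (NG2 minus GFAP) and 10 a negative one, with a median of 0.13 beside -0.01 over all tested genes, of which 48.5% were positive. The signs of Tubg1, Map2, Map4, Dcx, Dclk2 and Dpysl2, all with estimates near 0, depended on the scaling between libraries. At an unadjusted p under 0.05 there were 14 members higher and 1 lower in NG2+ cells, beside 6.45% of all tested genes higher and 6.33% lower. DESeq2 called 9 members higher and none lower, against a background of 1.63% and 1.03% of the genes to which it gave an adjusted p: Stmn4, Stmn2, Stmn3, Tubb4a, Tubb2a, Tubb3, Crmp1, Dpysl5 and Gap43. The authors' deposited table called the same 9 higher and none lower at an adjusted p under 0.05, with 0.711% and 0.452% of its genes called in those directions. Its log2 fold changes for these genes match those of DESeq2 (Stmn4 1.065 and Gap43 0.368 in both), so its calls are not independent support. In 5 members (Stmn1, Stmn2, Stmn3, Tubb2a and Gap43) every NG2+ library lay above every GFAP+ library, and in none did every NG2+ library lie below, beside 1.53% and 1.75% of all tested genes. The 14 members higher at an unadjusted p under 0.05 were the 4 stathmins, 4 tubulins (Tuba1a, Tubb2a, Tubb3 and Tubb4a), Crmp1, Dpysl5, Gap43, Mapt, Tbcb and Ttl, and the 1 lower was Dpysl4.

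**Figure D1:**
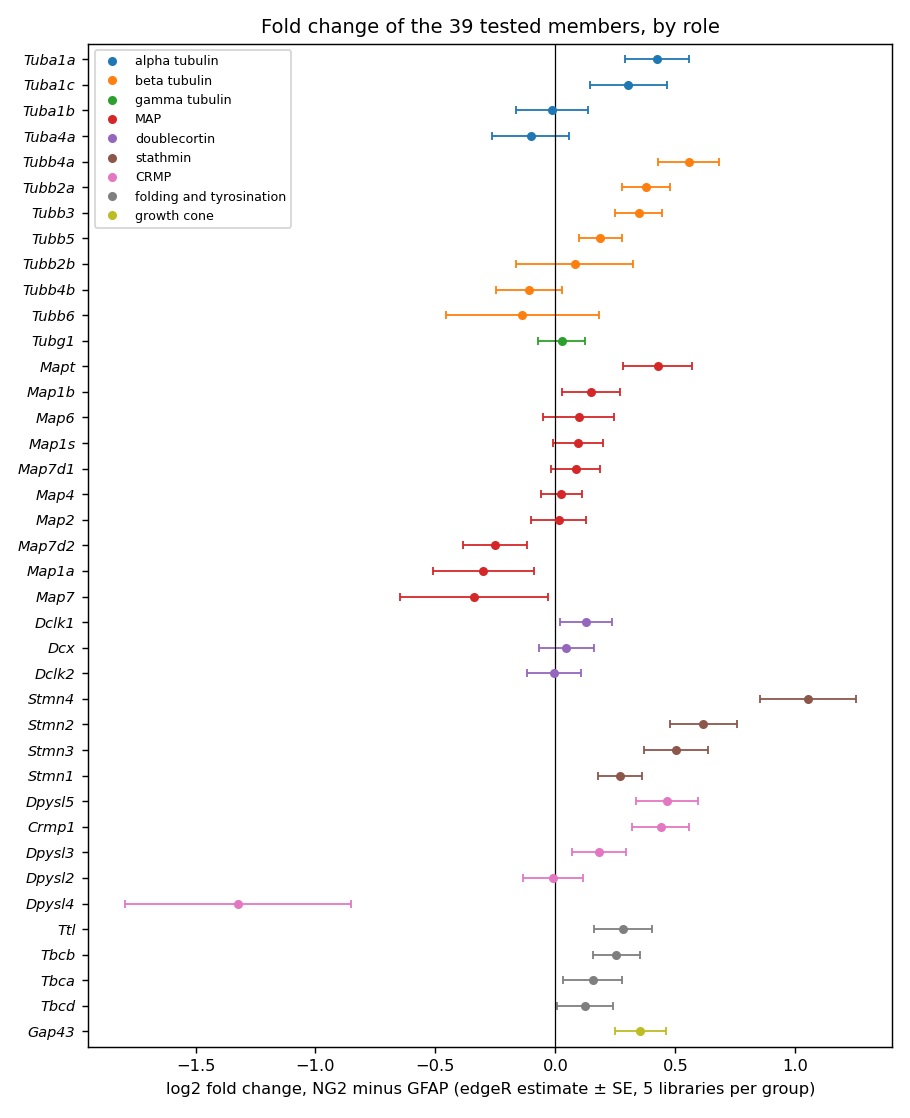
Log2 fold change (NG2 minus GFAP, x axis) of the 39 tested members, grouped and coloured by role; points are edgeR estimates from 5 libraries per group and bars are their standard errors. The 4 stathmins lie to the right of 0, Stmn4 farthest at 1.05, and Dpysl4 at -1.32 has the widest bar of the CRMPs.

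The libraries held 12945436 to 17569730 counted reads. Cspg4, which encodes NG2, averaged 6.74 CPM (counts per library scaled by TMM factors to equal depth) in NG2+ and 1.07 CPM in GFAP+ cells, a log2 fold change of 2.64 (SE 0.30, edgeR adjusted p = 0.00256), whereas Gfap had 16 reads in all libraries together, so that the GFAP label could not be checked on its gene. NG2+ replicate 5 had the most reads but only 18903 genes with a read, and its Pearson correlation of log2 CPM with any other library did not exceed 0.963, beside at least 0.985 with the nearest library for each of the others. GFAP+ replicate 2 had the lowest summed level of 13 neuron markers, 3793 CPM, and the highest of 6 cell cycle markers, 2413 CPM. Neuron markers otherwise summed to 4593 to 5092 CPM in GFAP+ and 4506 to 6917 CPM in NG2+ libraries, with 9 of the 13 higher in NG2+ cells on average (median log2 fold change 0.26), while 11 of 12 radial glia markers (-0.28), 6 of 8 intermediate progenitor markers (-0.22) and 6 of 6 cell cycle markers (-0.26) were lower. Radial glia markers, which define neural stem cells of this stage, summed to 1589 to 2307 CPM in GFAP+ and 1047 to 1783 CPM in NG2+ libraries. EdgeR called none of the neuron, radial glia, intermediate progenitor or cell cycle markers. DESeq2 called the neuron genes Rtn1 (adjusted p = 0.00559) and Nefm (0.00564) higher, and the radial glia gene Pax6 (0.0283) and the intermediate progenitor genes Eomes (0.0123) and Btg2 (0.00171) lower. Every NG2+ library lay above every GFAP+ library for Rtn1 and below for Eomes and Btg2, with estimates of 0.56, -0.40 and -0.45 and edgeR adjusted p of 0.122, 0.122 and 0.0726. The part of these markers in the members' values was not tested. In sorted bulk RNA, fewer cells of a type and less RNA per cell cannot be told apart.

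Alpha tubulin RNA was dominated by Tuba1a, the main alpha tubulin of young neurons, which had the highest mean FPKM (reads scaled by gene length and library, as deposited) of all 53801 genes at 5299. Tuba1b, the alpha tubulin of most dividing cells, followed at 628 FPKM (rank 28 of all genes), Tuba1c at 117, Tuba4a at 17.9 and Tuba8 at 0.075. Summed over the 5 genes, alpha tubulin came to 6869 ± 1480 FPKM in NG2+ and 5254 ± 380 in GFAP+ cells (SD, n = 5). The groups overlapped, with 5492 FPKM in NG2+ replicate 1 below 5732 FPKM in GFAP+ replicate 2. Tuba1a (ENSMUSG00000072235, chr15:98949837-98953703, minus strand, GRCm38) was measured at 8145, 8436, 8842, 8084 and 7583 CPM in GFAP+ replicates 1 to 5, and at 8591, 11870, 15031, 10594 and 9045 CPM in NG2+ replicates 1 to 5. Of the NG2+ libraries, 4 lay above all GFAP+ libraries and replicate 3 was the highest of the 10. Its log2 fold change was 0.42 (SE 0.13), with an edgeR adjusted p of 0.230.

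Tuba1b (chr15:98931425-98934565, minus strand) was measured at 1097, 1761, 1053, 1088 and 964 CPM in GFAP+ and at 1050, 1022, 1364, 1251 and 1218 CPM in NG2+ replicates 1 to 5. GFAP+ replicate 2 stood above the other 9 libraries, and the estimate of -0.01 (SE 0.15, 95% interval -0.31 to 0.28) turned to 0.17 without it. Whether Tuba1b differed from Tuba1a in its fold change was not tested. Tuba1c had a positive estimate of 0.30 (SE 0.16) and Tuba4a a negative one of -0.10 (SE 0.16), neither past the test, and Tuba8, with 25 reads in all, was not tested. Of the summed alpha tubulin FPKM, Tuba1a made up 88.4% ± 2.05 in NG2+ and 85.8% ± 2.79 in GFAP+ cells, and Tuba1b 9.35% ± 1.58 and 11.9% ± 2.49 (SD, n = 5). Tuba1a held its lowest share, 80.9%, in GFAP+ replicate 2, where Tuba1b had its highest, 16.2%, and the groups' shares overlapped.

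The counts of these genes can depend on how near-identical reads were assigned. Over the coding sequence Tuba1a was identical to Tuba1b at 98.3% of bases and to Tuba1c at 97.1%, and 54.7% of 150-base windows of the Tuba1a transcript also occurred in a transcript of another gene, against 51.5% for Tuba1b and 40.1% for Tuba1c. Tuba1a and Tuba1b also overlap a gene model on the same strand (AC161165.4) and Tuba1b another on the opposite strand. The sources used here do not give how such reads were treated, and the split between Tuba1a, Tuba1b and Tuba1c is uncertain. Tuba4a overlaps Stk16 on the opposite strand, and 30.3% of its 150-base windows are shared with that gene.

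The beta tubulins were less dominated by 1 gene. Tubb3, the neuron-specific class III isotype, and Tubb5, the isotype of most dividing cells, had mean levels of 776 and 745 FPKM, followed by Tubb2b at 431, Tubb4b at 206, Tubb2a at 205, Tubb4a at 93.8 and Tubb6 at 3.38 FPKM. Their sum was 2661 ± 272 FPKM in NG2+ and 2261 ± 119 FPKM in GFAP+ cells (SD, n = 5). By edgeR's estimate 5 of the 7 were higher in NG2+ cells, with a median of 0.19, and 3 of them, Tubb4a, Tubb2a and Tubb3, reached an unadjusted p under 0.05.

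Tubb4a, a beta tubulin of neurons and oligodendrocytes (chr17:57080066-57087782, minus strand), was measured at 192, 133, 179, 166 and 181 CPM in GFAP+ and at 239, 287, 285, 254 and 188 CPM in NG2+ replicates 1 to 5. All NG2+ libraries but replicate 5 exceeded every GFAP+ library. The difference of 0.56 (SE 0.13) had an edgeR adjusted p of 0.122, and of 0.0190 without NG2+ replicate 5, with a range of 0.00237 to 0.300 over 21 alternative analyses.

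Tubb2a, an isotype abundant in neurons (chr13:34074274-34078007, minus strand), was measured at 319, 292, 319, 273 and 242 CPM in GFAP+ and at 331, 368, 392, 369 and 416 CPM in NG2+ replicates 1 to 5. The groups did not overlap, with NG2+ replicate 1 closest to the GFAP+ libraries. Its log2 fold change was 0.38 (SE 0.10, edgeR adjusted p = 0.155).

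Tubb3 (chr8:123411424-123422015, plus strand) was measured at 1391, 1166, 1361, 1299 and 1214 CPM in GFAP+ and at 1366, 1735, 1815, 1729 and 1536 CPM in NG2+ replicates 1 to 5. Here NG2+ replicate 1 fell within the GFAP+ range, and the estimate was 0.35 (SE 0.10, edgeR adjusted p = 0.176). A gene model on the same strand, Gm20388, spans Tubb3 but shared no 150-base transcript window with it.

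Tubb5 (chr17:35833921-35838306, minus strand) was measured at 2317, 2616, 2326, 2213 and 2218 CPM in GFAP+ and at 2379, 2534, 3037, 2689 and 2664 CPM in NG2+ replicates 1 to 5. GFAP+ replicate 2 stood above the other GFAP+ libraries and within the NG2+ range. The estimate of 0.19 (SE 0.09) had an edgeR adjusted p of 0.403.

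Tubb2b, a tubulin needed for neuronal migration (chr13:34126748-34130466, minus strand), was measured at 995, 939, 1123, 849 and 938 CPM in GFAP+ and at 1172, 364, 1382, 1011 and 1192 CPM in NG2+ replicates 1 to 5. Replicate 2 of the NG2+ group lay far below the other 9 libraries, while its Tubb2a was within the range of its group. The estimate moved from 0.08 (SE 0.24) to 0.30 without that library, and did not pass the test either way. Tubb4b and Tubb6 had negative estimates of -0.11 (SE 0.14) and -0.14 (SE 0.32), and the Tubb4b estimate turned to 0.05 without GFAP+ replicate 2.

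As shares of summed beta tubulin FPKM, Tubb3 made up 32.9% ± 3.64 in NG2+ and 30.1% ± 2.25 in GFAP+ cells, Tubb5 30.0% ± 1.05 and 30.7% ± 1.55, and Tubb2b 16.5% ± 5.78 and 18.4% ± 1.40 (SD, n = 5). The Tubb4b share was 7.50% ± 0.43 in NG2+ and 9.41% ± 2.00 in GFAP+ cells, the only share without overlap between the groups among the 12 alpha and beta tubulins. The extremes were in single libraries: GFAP+ replicate 2 had the highest Tubb4b share, 12.9%, and the lowest Tubb3 share, 26.3%, and NG2+ replicate 2 the highest Tubb3 share, 38.8%, and the lowest Tubb2b share, 6.64%. Shares of a family are not independent of one another.

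**Figure D2:**
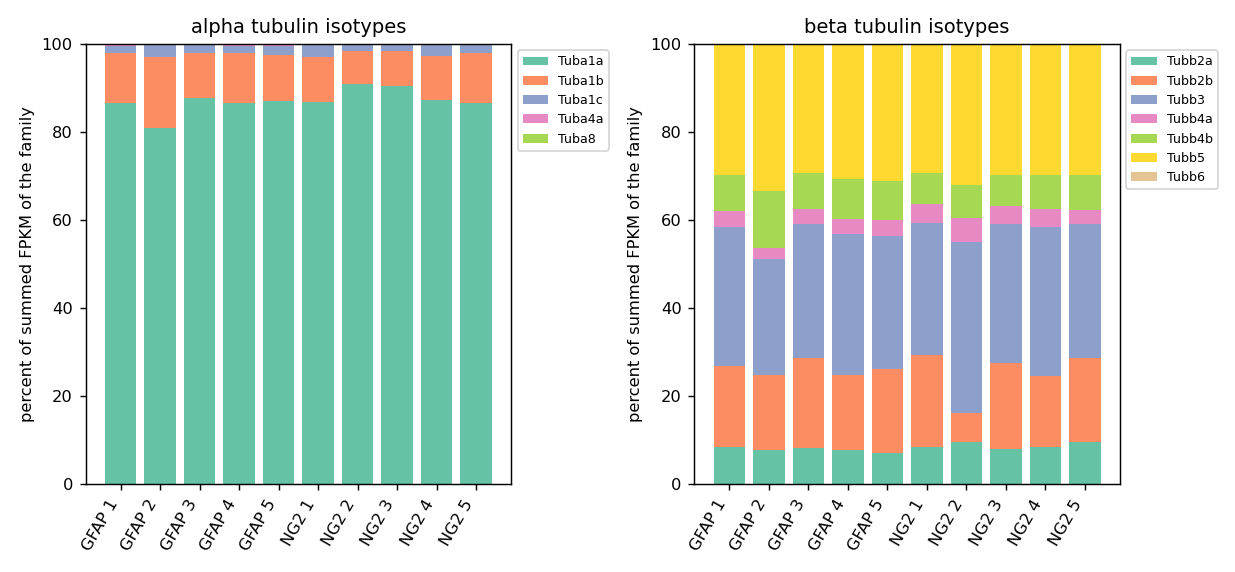
Percent of the summed FPKM of alpha tubulins (left) and beta tubulins (right) contributed by each isotype (colours), 1 bar per library. Tuba1a fills 80.9% to 90.9% of every alpha bar, GFAP 2 has the widest Tuba1b and Tubb4b segments, and NG2 2 the narrowest Tubb2b segment.

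Among the beta tubulins, Tubb2a and Tubb2b were identical at 96.5% of coding bases and shared a run of 551 bases. Of 150-base windows, 27.9% of Tubb2a and 18.8% of Tubb2b, and 11.9% of Tubb4b, occurred in another gene's transcript, and none of Tubb3, Tubb4a, Tubb5 or Tubb6 did. Tubb3 was identical to the other beta tubulins at 81.3% to 85.9% of bases. The last 60 coding bases of the beta tubulins whose values are given above encode the acidic C-terminal tail, where isotypes differ most, and are shown so that the genes can be compared there. Capitals mark bases that differ from Tubb2b, or have no counterpart in it, in a pairwise alignment, and each stretch lies within a single exon. Their positions on GRCm38 are chr13:34127474-34127533 (Tubb2b, minus strand), chr13:34074471-34074530 (Tubb2a, minus strand), chr17:57080693-57080752 (Tubb4a, minus strand), chr17:35834985-35835044 (Tubb5, minus strand) and chr8:123421620-123421679 (Tubb3, plus strand).
Tubb2b: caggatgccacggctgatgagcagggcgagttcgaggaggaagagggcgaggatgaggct
Tubb2a: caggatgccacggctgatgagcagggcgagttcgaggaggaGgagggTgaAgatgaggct
Tubb4a: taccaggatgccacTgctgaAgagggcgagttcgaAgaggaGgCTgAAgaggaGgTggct
Tubb5: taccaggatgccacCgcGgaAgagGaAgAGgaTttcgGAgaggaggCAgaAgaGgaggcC
Tubb3: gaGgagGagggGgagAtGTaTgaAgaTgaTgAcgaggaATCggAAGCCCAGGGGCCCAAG
Tubb2a differs from Tubb2b at 3 of the 60 bases, Tubb4a at 10, Tubb5 at 15 and Tubb3 at 31. Bases without a counterpart in Tubb2b count as different, while Tubb2b bases missing from the other gene are not counted. The coding sequences have 1335 bases in Tubb2b, 1350 in Tubb3 and 1332 in Tubb4a and Tubb5, so the counts are not strictly alike.

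Gamma tubulin (Tubg1), which nucleates microtubules, had 183 ± 15.0 CPM in NG2+ and 180 ± 20.1 CPM in GFAP+ cells (SD, n = 5), and its estimate of 0.03 had a 95% interval of -0.17 to 0.22. Reads of the 13 tubulin genes together made up 1.65% to 2.26% of all reads in NG2+ libraries and 1.44% to 1.64% in GFAP+ libraries. For all 40 members the shares were 3.02% to 3.66% and 2.63% to 2.88%, so that the groups did not overlap in either. These shares are not TMM-scaled, and the tubulin gap was narrow, with 1.654% in NG2+ replicate 1 and 1.642% in GFAP+ replicate 3. GFAP+ replicate 2 had 1.636%, and with TMM factors of 1.031 (NG2+ replicate 1) and 0.985 (GFAP+ replicate 2) the tubulin sums overlap. Neither share was set beside those of other genes.

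All 4 stathmins were higher in NG2+ cells at an unadjusted p under 0.05, with a median log2 fold change of 0.56. Stmn1, the stathmin shared by progenitors and neurons, was the most abundant at 2315 FPKM (rank 4 of all genes), while Stmn3 had 286, Stmn2 62.7 and Stmn4 60.9 FPKM.

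Stmn4, a neuronal stathmin (ENSMUSG00000022044, chr14:66344296-66361680, plus strand), was measured at 91.2, 67.3, 54.6, 106 and 62.4 CPM in GFAP+ and at 106, 189, 198, 124 and 174 CPM in NG2+ replicates 1 to 5. The lowest NG2+ library, replicate 1, met the highest GFAP+ library, replicate 4, and the others were separate. It had the largest positive difference of the members, 1.05 (SE 0.20, 95% interval 0.66 to 1.45, 2.07-fold), and the smallest adjusted p of the members, 0.0590 by edgeR. Without NG2+ replicate 1, and without NG2+ replicate 5 (adjusted p = 0.0349), it passed the test, and over 21 alternatives the adjusted p ranged from 6.5e-05 to 0.254.

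Stmn2 (chr3:8509360-8561606, plus strand), a growth-cone stathmin needed for axon growth, was measured at 297, 216, 288, 270 and 324 CPM in GFAP+ and at 367, 467, 571, 355 and 380 CPM in NG2+ replicates 1 to 5. The groups did not overlap. The difference of 0.62 (SE 0.14) had an edgeR adjusted p of 0.122 with all libraries and of 0.0463 without NG2+ replicate 5, with a range of 0.00445 to 0.290 over the alternatives.

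Stmn3 (chr2:181306459-181314500, minus strand), a relative of Stmn2 that is also enriched in neurons, was measured at 267, 225, 310, 271 and 278 CPM in GFAP+ and at 318, 387, 525, 358 and 330 CPM in NG2+ replicates 1 to 5. Again every NG2+ library exceeded every GFAP+ library, with replicate 3 highest. Its log2 fold change was 0.50 (SE 0.13, edgeR adjusted p = 0.155).

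Stmn1 (chr4:134468320-134473843, plus strand) was measured at 3754, 3866, 4281, 4323 and 4104 CPM in GFAP+ and at 4553, 5312, 5619, 4593 and 4415 CPM in NG2+ replicates 1 to 5. The gap between the groups was small beside the spread, and the estimate was 0.27 (SE 0.09, edgeR adjusted p = 0.272). A small gene model, Gm23634, lies within Stmn1 on the same strand, and 7.9% of its 150-base windows occur in another gene's transcript. Within this family the estimate was thus lowest for the stathmin with the highest level, a difference between genes that was not tested.

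**Figure D3:**
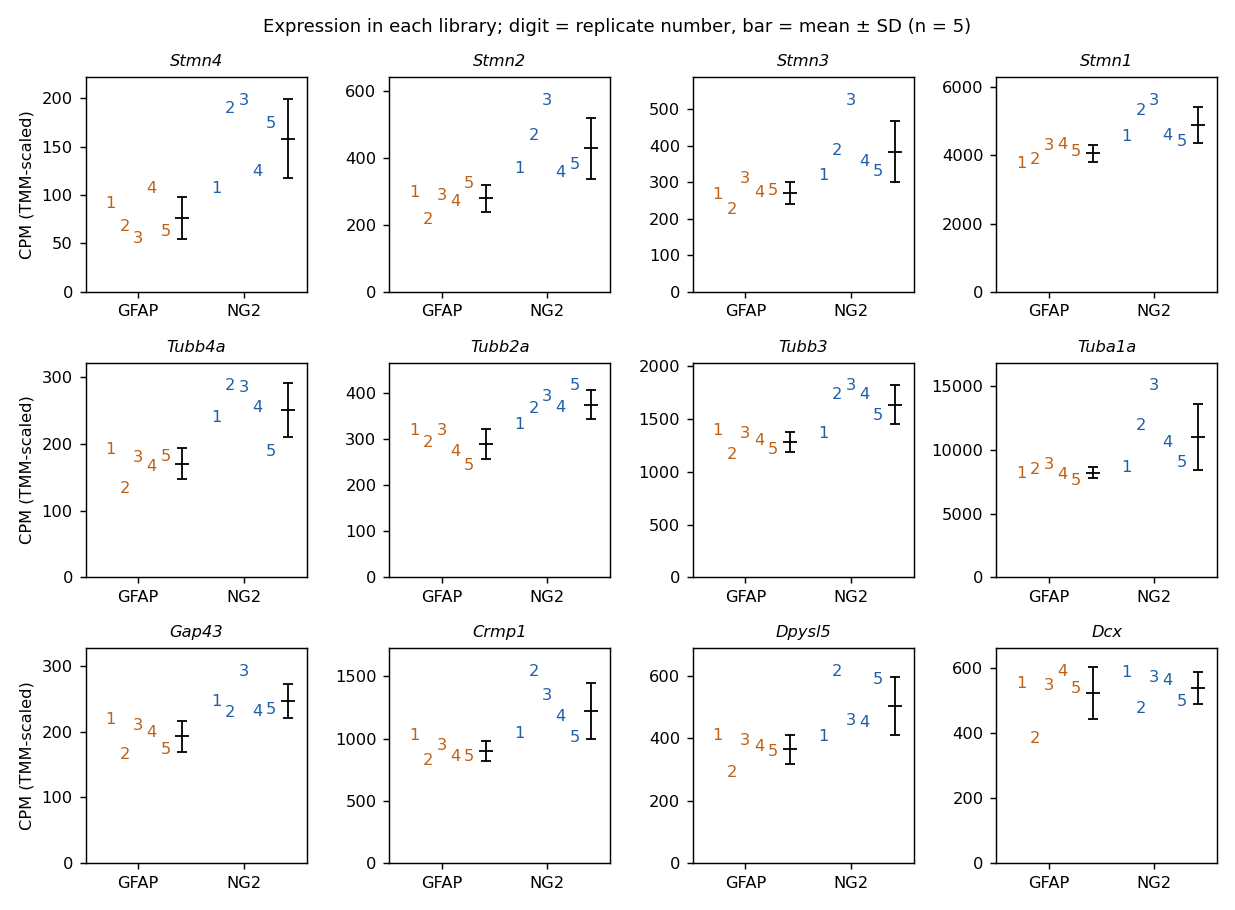
CPM (y axis, TMM-scaled, from 0) of 12 members in each library; digits are replicate numbers, orange for GFAP and blue for NG2, and the bar beside each group is its mean ± SD (n = 5). In Stmn2, Stmn3, Stmn1, Tubb2a and Gap43 the blue digits all lie above the orange ones, in Dcx they overlap, and NG2 3 is often the highest library.

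Of the 5 CRMPs, Crmp1 and Dpysl5 were higher in NG2+ cells at an unadjusted p under 0.05, Dpysl4 was lower, and Dpysl3 and Dpysl2 had estimates of 0.18 (SE 0.11) and -0.01 (SE 0.12). Crmp1 (chr5:37241940-37292133, plus strand), a mediator of semaphorin signals, was measured at 1021, 827, 941, 859 and 859 CPM in GFAP+ and at 1040, 1541, 1347, 1177 and 1008 CPM in NG2+ replicates 1 to 5. NG2+ replicate 5 fell within the GFAP+ range and the other 4 lay above it. The difference was 0.44 (SE 0.12, edgeR adjusted p = 0.164). Crmp1 overlaps Evc on the opposite strand, but no 150-base window of its transcripts was shared.

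Dpysl5, also called CRMP5 (chr5:30711564-30799375, plus strand), was measured at 408, 289, 393, 373 and 358 CPM in GFAP+ and at 407, 614, 458, 450 and 586 CPM in NG2+ replicates 1 to 5. Replicate 1 of the NG2+ group was level with the highest GFAP+ library. The difference was 0.46 (SE 0.13, edgeR adjusted p = 0.174), and a gene model on the same strand (Gm42764) overlaps it without a shared 150-base transcript window.

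Dpysl4 was the only member lower in NG2+ cells at an unadjusted p under 0.05, and also the CRMP with the lowest level, 1.6 FPKM. It was measured at 3.95, 17.4, 8.18, 27.6 and 12 CPM in GFAP+ and at 7.21, 1.93, 4.65, 3.63 and 10.1 CPM in NG2+ replicates 1 to 5. The groups overlapped and the GFAP+ libraries spanned the wider range. Its estimate of -1.32 (SE 0.47) had an edgeR adjusted p of 0.286. This gene was singled out after its values were seen.

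Gap43 (chr16:42248442-42340651, minus strand), a growth-cone protein of extending axons, was measured at 219, 165, 209, 199 and 173 CPM in GFAP+ and at 246, 229, 292, 231 and 234 CPM in NG2+ replicates 1 to 5. The groups did not overlap, and NG2+ replicate 3 stood above the other libraries. The difference was 0.35 (SE 0.10, edgeR adjusted p = 0.200). A microRNA gene, Mir6540, lies within it on the same strand.

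The promoters of 28 of the 40 members were found in the RefSeq table (GRCm38.p6), and the 250 bases before the start are shown for the 3 genes called higher by DESeq2 whose RefSeq start lies within 1 base of the deposited gene end. Capitals mark matches, on either strand, to the TATAA box, to the CCAAT box, to the GC box GGGCGG, or to the E-boxes CAGCTG or CAGATG, of which the latter is bound by neurogenic factors. The windows are chr13:34078009-34078258 (Tubb2a, minus strand), chr2:181314501-181314750 (Stmn3, minus strand) and chr5:30711314-30711563 (Dpysl5, plus strand).
Tubb2a: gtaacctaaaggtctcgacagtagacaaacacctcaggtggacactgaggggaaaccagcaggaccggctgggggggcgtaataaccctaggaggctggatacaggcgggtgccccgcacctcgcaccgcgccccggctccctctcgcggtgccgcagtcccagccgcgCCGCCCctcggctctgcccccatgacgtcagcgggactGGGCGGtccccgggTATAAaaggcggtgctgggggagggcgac
Stmn3: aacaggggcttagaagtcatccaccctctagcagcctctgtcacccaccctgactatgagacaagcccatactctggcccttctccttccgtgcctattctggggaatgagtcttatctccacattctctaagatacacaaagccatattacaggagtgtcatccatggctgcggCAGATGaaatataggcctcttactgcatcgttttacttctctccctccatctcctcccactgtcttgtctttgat
Dpysl5: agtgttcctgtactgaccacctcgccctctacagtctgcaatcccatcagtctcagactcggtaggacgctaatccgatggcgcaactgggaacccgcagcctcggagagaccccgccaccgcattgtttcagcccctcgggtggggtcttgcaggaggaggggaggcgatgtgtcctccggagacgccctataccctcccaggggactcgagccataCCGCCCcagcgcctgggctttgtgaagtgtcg
The Tubb2a window holds TATAA beginning 29 bases before the start and GGGCGG at 43 and 81 bases, the Stmn3 window holds CAGATG at 75 bases, and the Dpysl5 window GGGCGG at 32 bases. Tubb2a and Dpysl5 thus both hold GGGCGG, and no motif searched occurs in all 3 windows. Over the 28 members, TATAA occurred in 17.9% of windows, CCAAT in 39.3%, GGGCGG in 67.9%, CAGCTG in 10.7% and CAGATG in 7.1%, on either strand. Among 10716 tested genes with a window of the same length the shares were 11.8%, 36.2%, 58.6%, 11.8% and 9.9%. For a member with several windows the one nearest to where the deposited gene begins was used. For the tested genes the first window by coordinate was used, so the shares are not strictly alike. A match is a description of letters only.

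Among the 10 microtubule-associated proteins 7 estimates were positive and 3 negative, with a median of 0.05, and 1 had an unadjusted p under 0.05. That gene was Mapt, which encodes tau, the axonal microtubule binder (chr11:104231390-104332090, plus strand). It was measured at 273, 186, 294, 234 and 214 CPM in GFAP+ and at 405, 266, 356, 324 and 265 CPM in NG2+ replicates 1 to 5. Of the NG2+ libraries, 3 lay above all GFAP+ libraries, and the difference was 0.43 (SE 0.14, edgeR adjusted p = 0.262). It overlaps 3 gene models on the opposite strand in coordinates, but no 150-base window of its transcripts was shared.

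Map2, the dendritic counterpart of tau (chr1:66175273-66442583, plus strand), was measured at 448, 310, 434, 431 and 481 CPM in GFAP+ and at 435, 488, 413, 389 and 401 CPM in NG2+ replicates 1 to 5. GFAP+ replicate 2 was the lowest of the 10 libraries and the rest of both groups overlapped. Its estimate was 0.01 (SE 0.12, 95% interval -0.21 to 0.24), and it turned to -0.08 without GFAP+ replicate 2.

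The remaining associated proteins fell into those near 0 and those with negative estimates, none past the test. Map1b, the earliest of these proteins in growing axons and the member of this role with the highest level (126 FPKM), had an estimate of 0.15 (SE 0.12), and Map6, which makes microtubules cold-stable, 0.10 (SE 0.15). Map1s, Map7d1 and the broadly expressed Map4 had estimates of 0.10, 0.08 and 0.02. Map1a, a protein of mature neurons, had -0.30 (SE 0.21), Map7, a kinesin recruiter, -0.34 (SE 0.31) at a level of 0.257 FPKM, and its relative Map7d2 -0.25 (SE 0.13).

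The doublecortins also lay near 0. Dcx, which stabilises microtubules in migrating neurons (chrX:143855842-143933311, minus strand), was measured at 552, 383, 548, 590 and 538 CPM in GFAP+ and at 588, 474, 572, 563 and 497 CPM in NG2+ replicates 1 to 5. GFAP+ replicate 2 was the lowest library, and without it the estimate of 0.05 (SE 0.12, 95% interval -0.18 to 0.27) became -0.05. Its kinase relatives Dclk1 and Dclk2 had estimates of 0.13 (SE 0.11) and -0.01 (SE 0.11). Whether Dcx or Map2 differed from Stmn2 or Tubb3 in their response was not tested.

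The 4 factors of tubulin folding and tyrosination had positive estimates with a median of 0.20. Tbcb, a cofactor that binds alpha tubulin, had 277 ± 38.9 CPM in NG2+ and 233 ± 7.64 in GFAP+ cells (SD, n = 5), a difference of 0.25 (SE 0.10, edgeR adjusted p = 0.311). It overlaps Polr2i on the opposite strand, and 12.6% of its 150-base windows are shared with that gene. Ttl, the ligase that puts tyrosine back onto alpha tubulin, had 51.4 ± 8.65 and 42.2 ± 2.76 CPM, a difference of 0.28 (SE 0.12, edgeR adjusted p = 0.348). Both reached an unadjusted p under 0.05, and Tbca and Tbcd, at 0.15 (SE 0.12) and 0.12 (SE 0.12), did not.

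Other genes of the microtubule system, 66 by name, were divided nearly evenly between the directions. They comprise other tubulins and the gamma-tubulin ring, enzymes of tubulin modification, severing and end-binding proteins, and motors. Of the 61 that were tested, 29 had a positive and 32 a negative estimate with a median of -0.02, and none passed edgeR's test. At an unadjusted p under 0.05, 10 were higher (16.4%) and 6 lower (9.84%), beside 6.45% and 6.33% of all tested genes. DESeq2 called 3 higher and none lower, beside 1.63% and 1.03% of the genes to which it gave an adjusted p. The smallest p-values belonged to Dync1i1, a dynein intermediate chain, with 41.8 ± 6.58 CPM in NG2+ and 26.7 ± 5.72 in GFAP+ cells (0.65, SE 0.16), to Mapre2, an end-binding protein (196 ± 11.3 and 159 ± 8.94 CPM), to Ttll1, a polyglutamylase (129 ± 16.7 and 100.4 ± 5.73 CPM), and to Svbp, the partner of the vasohibins that remove the tyrosine of alpha tubulin (113 ± 16.7 and 87.5 ± 7.48 CPM; SD, n = 5). Their edgeR adjusted p-values were 0.138, 0.168, 0.174 and 0.201.

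Individual libraries shaped several members at once. GFAP+ replicate 2 was the lowest of the 10 libraries for 16 members, Stmn2, Tubb4a, Tubb3, Gap43, Mapt, Map2 and Dcx among them, and yet the highest of its group for Tuba1b, Tuba1c, Tubb4b and Tubb5. NG2+ replicate 3, with the highest summed neuron markers, was the highest of the 10 for 13 members, including Tuba1a and Stmn1 to Stmn4. Without GFAP+ replicate 2 edgeR called no member, with 0.0182% of tested genes higher and 0% lower. Without NG2+ replicate 5 it called Stmn2, Stmn4 and Tubb4a, with 0.425% of tested genes higher and 0.285% lower. Microglia markers, which mark another cell type a sort could admit, summed to values that ranged from 26.3 to 98.2 CPM in GFAP+ and 14.4 to 203 CPM in NG2+ libraries, lowest in NG2+ replicate 3. All 6 had a positive estimate (median log2 fold change 0.99) and none was called by edgeR. Red blood cell markers summed to 192 to 356 CPM in GFAP+ and 200.5 to 470 CPM in NG2+ libraries, with 4 of 4 estimates positive (median 0.43) and none called by edgeR. Oligodendrocyte progenitor markers, Cspg4 included, summed to at most 17.6 CPM. The part of these cells in the members' values was not tested.

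**Figure D4:**
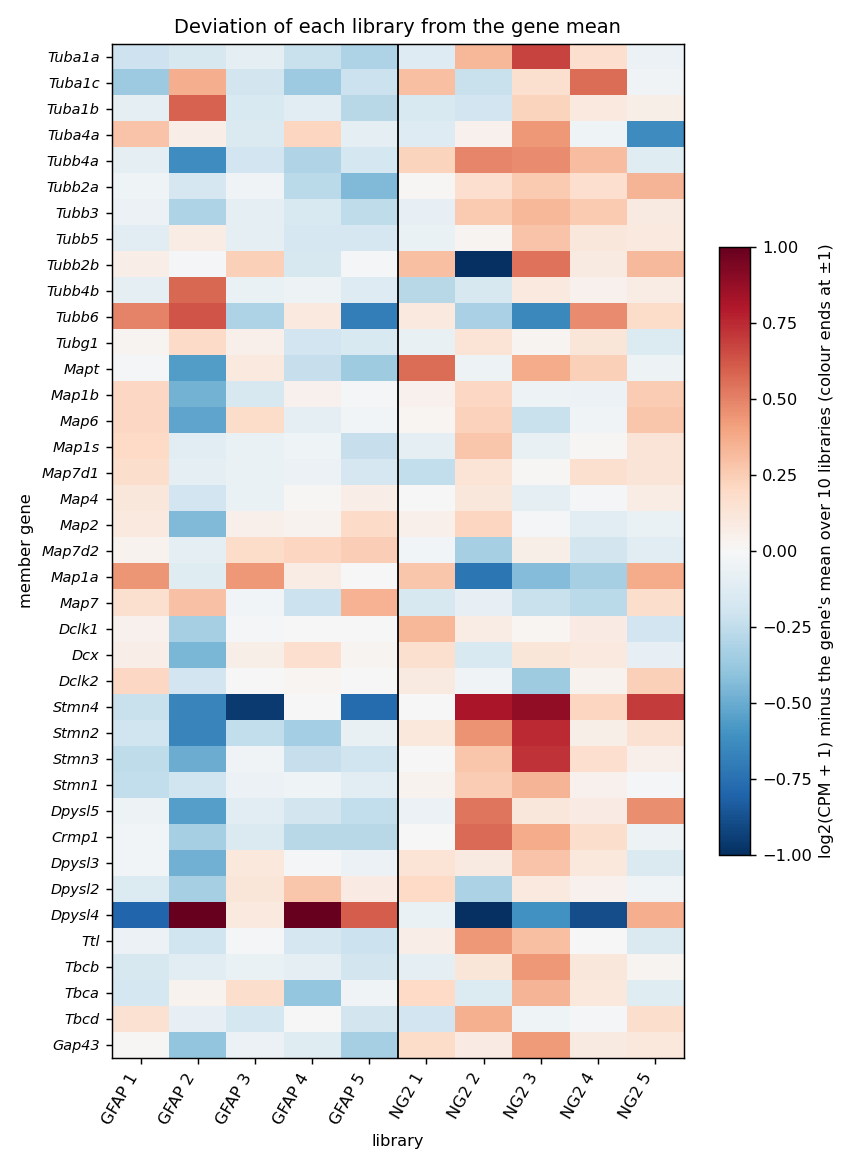
Deviation of log2(CPM + 1) in each library (columns) from the average of that gene across all libraries (colour, red above and blue below, ending at ±1) for the 39 tested members (rows, ordered by role). The GFAP 2 column is blue for most neuronal genes but red for Tuba1b, Tuba1c and Tubb4b, and the NG2 3 column is red from Stmn4 to Stmn1.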

How the data were processed

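The data are 10 bulk RNA-seq libraries, 5 of NG2+ and 5 of GFAP+ cells. The deposited table gives unnormalised whole read counts, and per the submitters' processing notes reads were aligned with HISAT2 to GRCm38.p6 and counted with featureCounts 1.5.0-p3. The deposited FPKM values were counts divided by gene length and by a library constant, and served to compare levels between genes. Per the file headers, the same table holds the authors' comparison, with a mean signal (scaled count) per group, log2 fold changes and p-values. Annotation release, strand setting and handling of multi-mapping reads: not given in the sources used here.

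Counts were tested with edgeR 4.0.16 in R 4.3.3 (TMM scaling, filterByExpr, quasi-likelihood test) over all 16187 genes that passed the filter, with Benjamini-Hochberg adjustment over all of them and a threshold of 0.05. CPM are TMM-scaled. Totals ranged from 12945436 to 17569730 reads. The libraries were amplified without molecular identifiers, so reads are not independent molecules. Alternatives were other scalings and filters, DESeq2 1.42.0, limma 3.58.1 (voom with sample weights, and limma-trend on log2(FPKM + 1) and log2(FPKM + 0.1)), a replicate block, leaving out each library, and leaving out GFAP+ replicate 2 and NG2+ replicate 5 together, which had stood apart in an earlier look at these data. The edgeR script was tested on simulated counts. It called 64.3% of genes changed by a log2 fold of 1 and 85.7% of those changed by 2, with 9 false calls. Smaller changes, the size of most members' estimates, were not simulated. Shared sequence was computed as the percent of 150-base windows of a gene's GENCODE M21 transcripts that occur in another gene's transcripts, and promoters came from RefSeq. Alpha tubulin sequences are not reported here. Values in every library are given for the 10 members with the smallest p, the 6 with the highest mean FPKM, and Dcx, Map2 and Mapt, and for Dpysl4, chosen after its values were seen. Members and gene lists were chosen with earlier results of these data known.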

Additional observations from a re-analysis of the deposited data

Results flagged for a closer look

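In 78 groups of 5 libraries (39 members in 2 groups), 7 members had 1 library far from the other 4 of its group, at a gap of more than 0.71 of the group's range. Chance flags about 1 in 20 such groups, and 6 of the 7 were in GFAP+ replicate 2. That library was high for Tuba1b (1760 CPM, others 964 to 1100), Tuba1c (339 CPM, others 204 to 231), Tubb4b (640 CPM, others 391 to 413) and Tubb5 (2620 CPM, others 2210 to 2330). It was low for Dcx (383 CPM, others 538 to 590) and Dclk1 (153 CPM, others 191 to 198). In the same library cell cycle markers summed to 2413 CPM (others of its group 1343 to 1547) and neuron markers to 3793 CPM (others 4593 to 5092), and their part in these values was not tested. Gap43 was high in NG2+ replicate 3 (292 CPM, others 229 to 246).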

How the results depend on the processing

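Of the 39 tested members, 26 kept their direction under every alternative run (22 positive, 4 negative), 21 for each but Map7, which the 5 CPM filter left out, and the members' median stayed between 0.08 and 0.16. No member passed edgeR's test with all libraries. Counts of members called higher were 3 without an expression filter, 1 with a filter of 5 CPM in 5 libraries, 9 with DESeq2, 13 with voom and 3 (Stmn2, Stmn4 and Tubb4a) without GFAP+ replicate 2 and NG2+ replicate 5, and 0 to 3 when single libraries were left out. Members called lower numbered 0 except for 2 with voom (Map1a and Map7d2). Voom moved Stmn2 from 0.62 to 0.39, Dpysl5 from 0.46 to 0.27, Tuba1c from 0.30 to 0.70 and Map1a from -0.30 to -0.54. Among the further microtubule genes, DESeq2 called 3 higher, voom 4 higher and 5 lower, and leaving out both libraries 1 higher and 1 lower, with 0 to 1 higher when single libraries were left out. Over all genes the 12 higher and 12 lower became 58 and 37 without a filter (31106 tested) and 212 and 134 with DESeq2 (13006). They became 584 and 857 with voom (16187) and 109 and 154 without both libraries (16288). The 5 CPM filter tested 11330 genes, and its calls over all genes are not reported here. Leaving out single libraries gave 3 to 70 higher and 0 to 47 lower, with both highest counts without NG2+ replicate 5, and limma-trend on log2(FPKM + 1) and log2(FPKM + 0.1) gave 3 lower each. The cause of these differences was not tested.

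The sources used here do not say whether the same replicate number in both groups marks paired libraries. Same-numbered deviations correlated at -0.092 to 0.077, and 1 of 10 libraries correlated best with its own number. Such correlations cannot show whether libraries shared an animal, litter or day. With the replicate number as a block, 1 gene was called higher and 0 lower, no member was called, Cspg4 had an edgeR adjusted p of 0.0574, and Tuba1b came to 0.016 and Tubb2b to -0.029.

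Members that changed sign had main estimates from -0.14 (Tubb6, with 928 reads in all) to 0.15 (Map1b, with 308129 reads). With voom Tuba1b came to 0.17, Tubb4b to 0.052, Tubb6 to 0.34, Map1b to -0.027, Map2 to -0.13, Map4 to -0.031 and Map6 to -0.062. With FPKM at either pseudocount Tuba1b came to 0.025, Tubb2b to -0.033 and Dpysl2 to 0.0077 and 0.0079, and Dclk2 to 0.00047 at a pseudocount of 1. With library size alone Tubg1 came to -0.019, Map2 to -0.033, Map4 to -0.020 and Dcx to -0.0015, and Map2 to -0.0014 with the 5 CPM filter. With RLE factors Dclk2 came to 0.0053 and Dpysl2 to 0.00050, and with DESeq2 to 0.0075 and 0.0031. Without both libraries Tuba1b came to 0.16, Tuba4a to 0.017, Tubb4b to 0.023, Map2 to -0.056, Map4 to -0.031, Map6 to -0.068 and Dcx to -0.019. Leaving out single libraries gave -0.078 to 0.17 for Tuba1b, -0.24 to 0.022 for Tuba4a, -0.043 to 0.30 for Tubb2b, -0.15 to 0.053 for Tubb4b, -0.30 to 0.052 for Tubb6, -0.013 to 0.084 for Tubg1, -0.076 to 0.073 for Map2, -0.016 to 0.059 for Map4, -0.0068 to 0.17 for Map6, -0.046 to 0.098 for Dcx, -0.065 to 0.080 for Dclk2 and -0.085 to 0.068 for Dpysl2.

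From reads not divided by length, mean family shares were 2.46% for Tuba1c, 0.613% for Tuba4a, 5.58% for Tubb2a, 24.6% for Tubb3 and 42.1% for Tubb5, beside 1.97%, 0.303%, 8.29%, 31.5% and 30.3% from FPKM. Tuba8 and Map7, with few reads, carry the most counting error.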
